A study of Mus musculus with 4 samples.

Results

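The genes described here are those of the myoepithelial contractile apparatus together with the transcription factor p63, in cultured mouse mammary tumour cells. The members were Trp63, Acta2, Actg2, Myh11, Cnn1, Tagln, Tpm2, Lmod1 and Oxtr. They were found by exact match of these 9 symbols to the gene name column of the array files among non-control probes, which gave 11 of 39429 probes, for 9 of the 31829 gene names on the array. Trp63 and Tpm2 had 2 probes each and the other genes had 1. The probe with the highest mean over the 4 arrays stood for its gene.

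Total RNA was measured on single-colour Agilent mouse arrays. The cells were derived from mammary tumours of MMTV-Neu mice, which carry the Neu (Her2) oncogene under the mouse mammary tumour virus promoter, and all carried that transgene. Of the 4 samples, 2 were labelled Pak1-/- (mice lacking the p21-activated kinase Pak1) and 2 were labelled Pak1+/+ (wild type for Pak1). All cells were grown in low calcium medium with horse serum, kept without serum for 3 h and given EGF for 15 min. Ages of the mice were not given. The design text names separate tumours for the 2 samples of a group, while the methods speak of tumour-derived cell lines, so that p-values measure the spread between these samples, which may be partly that of cultures. All 4 arrays lay on 1 slide, with the Pak1-/- samples at positions 1 and 2 and the Pak1+/+ samples at positions 3 and 4. Genotype and position on the slide therefore cannot be told apart. The probe for Pak1 was well above background on all 4 arrays, at 12.21 and 12.25 log2 in the arrays labelled Pak1-/- and 12.04 and 12.04 in those labelled Pak1+/+, and did not pass the test (adjusted p = 0.070 in limma). The labels are therefore not borne out by this probe, and every direction below is that of the labels.

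Myoepithelial cells form the outer layer of mammary ducts and alveoli and contract when oxytocin binds the receptor encoded by Oxtr, which expels milk. Their contraction uses the smooth muscle isoforms of actin, myosin, tropomyosin and actin-binding proteins, whose genes are read by serum response factor with its myocardin-family partners at a DNA element named the CArG box. p63, encoded by Trp63, is a relative of p53 and is required for the basal layer of stratified and glandular epithelia. MMTV-Neu tumours are known for a luminal character. Since bulk RNA was measured, a larger share of cells with such transcripts and more RNA per cell cannot be told apart.

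Oxtr, Tpm2 and Acta2 were much higher in the arrays labelled Pak1-/-, by 14.3-fold, 8.21-fold and 3.23-fold. Actg2 and Trp63 were higher by 1.42-fold and 1.34-fold. Tagln and Cnn1 did not pass the test, with differences of -0.20 and 0.04 log2. Myh11 and Lmod1 were not tested, since their probes were well above background on 0 and 1 of the 4 arrays. Of the 7 members tested, which are not all members, 5 were called higher and 0 lower, and the groups did not overlap in 6 (77.6% of all genes tested). Among all 21993 genes tested, 51.1% were called, with 22.8% called higher in the arrays labelled Pak1-/- and 28.2% called lower, so that a call is common in this comparison (by probes 52.0%, 23.3% higher and 28.6% lower, that is 6354 and 7790 probes, against 7330 and 6654 with cyclic loess). A rise of at least 2-fold with a call was less common, at 7.00% of genes (a fall of that size, 5.62%), and was met by 3 members and the fall by 0. A rise of at least 8-fold with a call was found for 0.968% of genes, and Oxtr and Tpm2 met it.

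**Figure D1:**
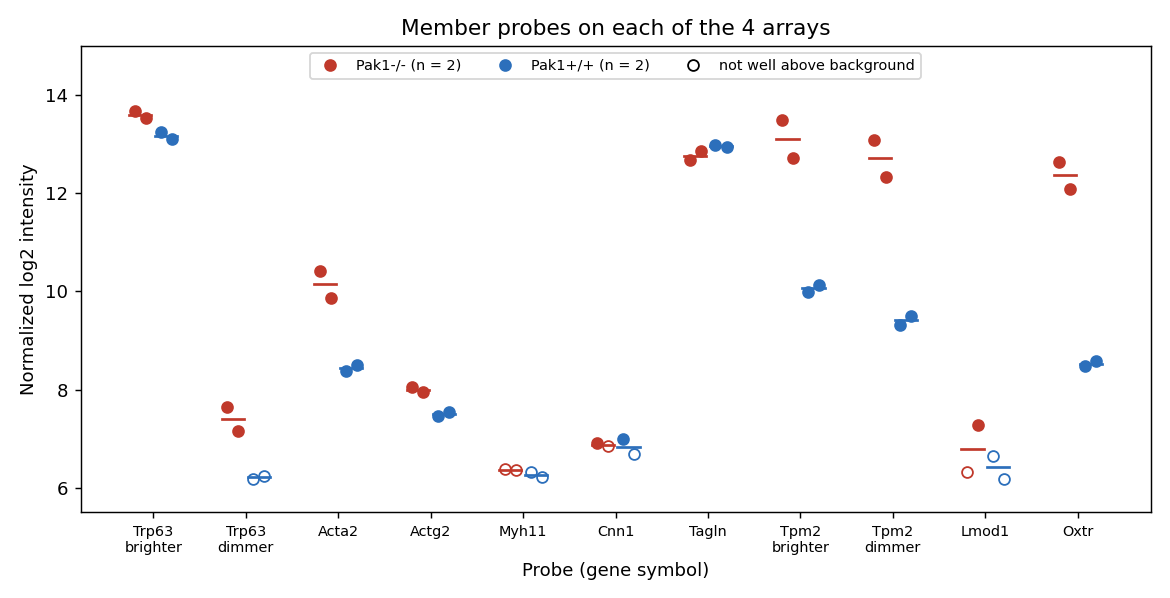
Normalized log2 intensity (vertical axis) of the 11 member probes on each of the 4 arrays, with Pak1-/- in red, Pak1+/+ in blue, filled points for a signal well above background, open points for one that was not, and a line at each group mean of 2 arrays. The separation is widest for Oxtr and for both Tpm2 probes, while Tagln and Cnn1 lie close together and all 4 points of Myh11 are open.

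Oxtr is the only receptor in the set. Its probe (mm9 chromosome 6, 112423686 to 112423745) read 12.65 and 12.10 in the Pak1-/- arrays and 8.47 and 8.59 in the Pak1+/+ arrays, on the normalized log2 scale. The groups did not overlap, and the lowest Pak1-/- array was far above both Pak1+/+ arrays. Before any normalization the mean spot intensity was 6114 and 4522 against 350 and 361, over local backgrounds of 39.0 to 48.0. The log2 difference was 3.84 (SE 0.20, adjusted p = 0.00033 in limma). It lay between 3.57 and 4.16 under the alternatives tried, with a call in all 17 of them. Only 0.546% of the genes tested had a difference at least as high. The receptor signals through calcium, and the other genes of that pathway are given with their own values after the p63 targets.

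Tpm2 encodes beta-tropomyosin, which winds along actin filaments and controls the access of myosin to them. Its probes are shown because they read different stretches of the coding sequence and were both called higher. Each is written 5′ to 3′ in lower case, as given in the array files.
Tpm2 brighter probe: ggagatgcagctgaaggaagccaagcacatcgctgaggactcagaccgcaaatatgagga
Tpm2 dimmer probe: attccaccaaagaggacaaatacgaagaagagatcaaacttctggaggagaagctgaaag

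The brighter probe (mm9 chromosome 4, 43532262 to 43532321) read 13.49 and 12.71 in the Pak1-/- arrays and 9.98 and 10.14 in the Pak1+/+ arrays. The dimmer probe (43531276 to 43531335) read 13.08 and 12.34 against 9.31 and 9.51. In both, the first Pak1-/- array was the highest of the 4 and the groups did not overlap. The log2 differences were 3.04 (SE 0.27, adjusted p = 0.0013 in limma) and 3.30 (SE 0.26, adjusted p = 0.0010). Their values ranged from 2.65 to 3.43 and from 2.93 to 3.67 under the alternatives. The tropomyosin genes are alike in their coding parts, and whether these probes also bind transcripts of the other tropomyosins was not tested. Those other tropomyosins were also higher, though by less, as given below.

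Acta2 encodes smooth muscle alpha-actin, the actin by which myoepithelial cells are usually recognised. Its probe (mm9 chromosome 19, 34316060 to 34316119) was printed 10 times on each array, which gives a technical spread that no other member has. The mean over spots, without 1 flagged spot of the first Pak1-/- array, was 10.41 and 9.87 in the Pak1-/- arrays and 8.39 and 8.51 in the Pak1+/+ arrays. All 10 spots, the flagged one included, ran from 10.03 to 10.50 and from 9.60 to 10.10 on the Pak1-/- arrays, and from 8.22 to 8.64 and from 8.35 to 8.72 on the Pak1+/+ arrays. No spot of a Pak1-/- array was as low as any spot of a Pak1+/+ array. The SD over spots was 0.13 to 0.15 within an array, against 0.38 between the means of both Pak1-/- arrays and 0.085 between those of the Pak1+/+ arrays. The difference between the groups was 1.69 log2 (SE 0.19, adjusted p = 0.0026 in limma), with a range of 1.42 to 1.96 under the alternatives and a call in all 17.

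**Figure D2:**
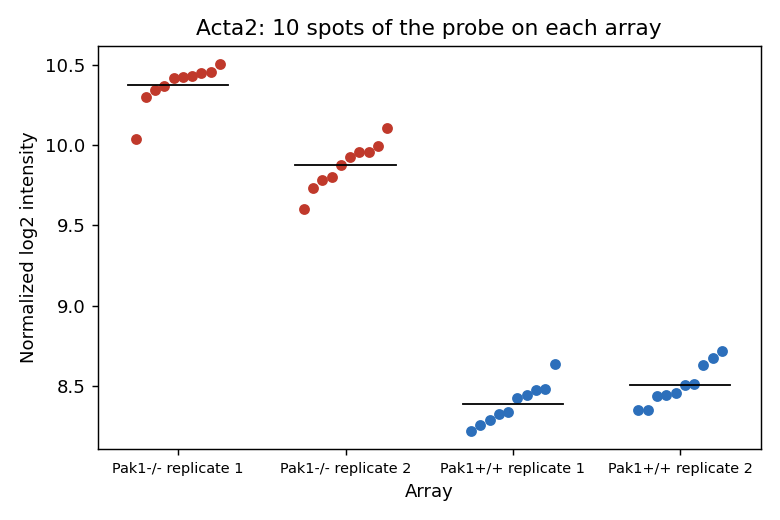
Normalized log2 intensity (vertical axis) of the 10 spots of the Acta2 probe on each of the 4 arrays (horizontal axis), sorted within an array, with a black line at the mean of all 10, including 1 spot of the first Pak1-/- array that bore an outlier flag and was set aside in the probe's mean. The spots of the Pak1-/- arrays (red) lie between 9.60 and 10.50 and those of the Pak1+/+ arrays (blue) between 8.22 and 8.72.

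Actg2 encodes smooth muscle gamma-actin, the actin of visceral smooth muscle. Probe values (mm9 chromosome 6, 83462904 to 83462963) were 8.05 and 7.95 in the Pak1-/- arrays and 7.46 and 7.54 in the Pak1+/+ arrays. The groups did not overlap, but the gap was small. The log2 difference of 0.50 (SE 0.08) passed with an adjusted p of 0.0067 in limma. The spots were dim, with mean intensities of 161 to 250 over backgrounds of 33.0 to 40.0, and the difference became 0.83 with the processed intensities scaled to the 75th percentile.

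Tagln encodes transgelin (SM22), an actin-binding protein of the calponin family and an early marker of smooth muscle. The Tagln probe (mm9 chromosome 9, 45738097 to 45738156) read 12.68 and 12.86 in the Pak1-/- arrays and 12.99 and 12.94 in the Pak1+/+ arrays. Both Pak1-/- arrays were slightly below both Pak1+/+ arrays. The log2 difference was -0.20 (SE 0.09, adjusted p = 0.13 in limma), negative under all 17 alternatives (-0.29 to -0.11) and called in 0 of them. Tagln was thus well above background in every sample without the rise seen for Acta2, Tpm2 and Oxtr. The difference between Tagln and these genes was not itself tested, since each gene was fitted on its own.

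Cnn1 encodes calponin-1, which binds actin and slows the myosin motor in mature smooth muscle. Its probe (mm9 chromosome 9, 21913058 to 21913117) read 6.91 and 6.85 in the Pak1-/- arrays and 7.00 and 6.68 in the Pak1+/+ arrays. Only the first array of each group had it well above background, and the groups overlapped. The difference was 0.04 log2 (SE 0.12, adjusted p = 0.83 in limma), and its sign was not stable: it was -0.006 in the deposited table and -0.12 without Pak1+/+ replicate 2.

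Myh11, the smooth muscle myosin heavy chain and a defining gene of mature smooth muscle, had no array well above background. Its probe (mm9 chromosome 16, 14202190 to 14202249) read 6.38 and 6.35 in the Pak1-/- arrays and 6.31 and 6.21 in the Pak1+/+ arrays, with mean intensities of 58.8 to 64.0. No fold is given for it. Lmod1, leiomodin-1, which nucleates actin filaments in smooth muscle, was well above background only on the second Pak1-/- array. Its probe (mm9 chromosome 1, 137264581 to 137264640) read 6.31 and 7.28 in the Pak1-/- arrays and 6.66 and 6.19 in the Pak1+/+ arrays, so that 1 array set the group mean and the groups overlapped. Its difference of 0.38 log2 became -0.11 without that array.

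Trp63 is the only transcription factor among the members. Its 2 probes read different transcripts. The array files assign the brighter probe to 3 and the dimmer probe to 4 of the 8 RefSeq transcripts of Trp63, with 0 shared and 1 in neither. The brighter probe is shown for its run of 6 CAG repeats, in capitals (18 bases), written 5′ to 3′.
Trp63 brighter probe: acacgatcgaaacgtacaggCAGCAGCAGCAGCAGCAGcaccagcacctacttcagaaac

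That probe (mm9 chromosome 16, 25871159 to 25871218) read 13.67 and 13.52 in the Pak1-/- arrays and 13.24 and 13.10 in the Pak1+/+ arrays. Both Pak1-/- arrays were above both Pak1+/+ arrays, and the log2 difference was 0.43 (SE 0.09, adjusted p = 0.019 in limma). The call was lost without Pak1-/- replicate 1 (0.35, adjusted p = 0.077) and without Pak1+/+ replicate 2 (0.35, adjusted p = 0.088), within a range of adjusted p of 0.0063 to 0.088 over the alternatives, and it did not pass at an adjusted p under 0.01. On the array, 2 probes of other genes hold the same run of repeats. Both were well above background on all 4 arrays and neither was called (median difference 0.14 log2). Whether repeats add signal to the Trp63 probe was not tested.

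The dimmer Trp63 probe (mm9 chromosome 16, 25892012 to 25892071) read 7.65 and 7.16 in the Pak1-/- arrays and 6.19 and 6.24 in the Pak1+/+ arrays. It was well above background on both Pak1-/- arrays and on neither Pak1+/+ array. The Pak1-/- level was therefore at least 1.45-fold that of Pak1+/+ (adjusted p = 0.0053 in limma). The probe passed the filter on dim probes only through the group where it was high, so that its direction is no support for that of the brighter probe and its size has only this bound.

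**Figure D3:**
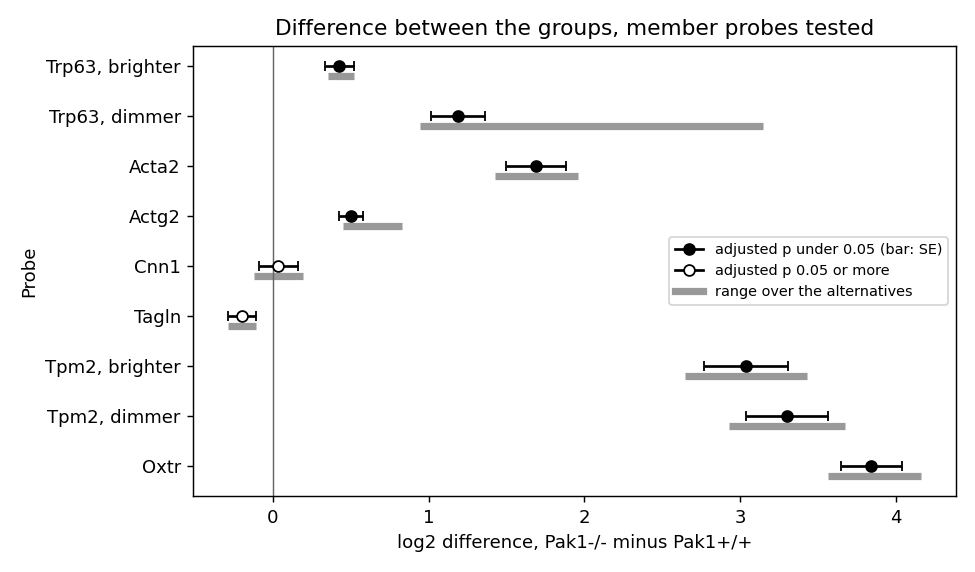
Log2 difference of Pak1-/- minus Pak1+/+ (horizontal axis) for the 9 member probes tested, with black bars for the SE, filled points for an adjusted p under 0.05 and grey bars for the range over the alternatives. The values of Oxtr and of both Tpm2 probes lie above 2.5 under all alternatives, those of Cnn1 lie on both sides of 0, and the widest range is that of the dimmer Trp63 probe (0.95 to 3.14), which was not well above background on either Pak1+/+ array.

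In the member probes called higher, the SD between the Pak1-/- arrays was above that between the Pak1+/+ arrays. For the brighter Trp63 probe they were nearly equal (0.105 and 0.103). The Pak1+/+ values of the dimmer Trp63 probe were at background, so that its SDs cannot be compared. In each of the 7 member probes called higher, which belong to 5 genes, the first Pak1-/- array was above the second, by 0.10 to 0.78 log2. Of all probes kept, 49.4% had the first Pak1-/- array above the second. For Tagln the second was above the first (12.86 and 12.68). Over all probes kept, the arrays of a group were alike, with a median absolute difference of 0.11 log2 in the Pak1-/- group and 0.083 in the Pak1+/+ group.

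Of the 9 members, 5 (Lmod1, Tpm2, Oxtr, Cnn1 and Acta2) had a promoter in the RefSeq table (GRCm38.p6), and the 250 bases before the start site were searched on both strands for the CArG box. A strict CArG box was in 0 of the 5 and in 1.47% of the 32851 start sites in the table. A form with at most 1 of the inner 6 bases other than A or T was in 8.59% of the start sites. Among the 5, it was found only in Acta2, 2 times, with its last base 75 and 25 bases before the start site. The Acta2 promoter is shown since its gene rose and since it alone held these matches, which stand in capitals (chr19:34255374-34255623, minus strand, 5′ to 3′).
Acta2 promoter: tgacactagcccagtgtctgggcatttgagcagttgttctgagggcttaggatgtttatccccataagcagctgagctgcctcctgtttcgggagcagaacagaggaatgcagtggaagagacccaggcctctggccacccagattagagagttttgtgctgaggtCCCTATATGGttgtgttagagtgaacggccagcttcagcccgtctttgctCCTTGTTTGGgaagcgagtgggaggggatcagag

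A match is a description of the letters only. Tpm2 and Oxtr, which were also called higher, had no match in this window, and neither had Cnn1 and Lmod1.

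The regulators that act at the CArG box were examined next. Of 11 tested genes on this list, 5 were called higher and 0 lower (median 0.44 log2, against -0.05 for all genes tested). Fhl2 is also on the contractile list, and Elk1 was saturated on all 4 arrays. Beside this and the following lists, 22.8% of all genes tested were called higher and 28.2% lower. Foxo4, among the 5, was well above background on neither Pak1+/+ array. It passed the filter on dim probes only through the group where it was high. With all 4 arrays required to be well above background, 6 of 10 tested were higher and 0 lower. Srf, the serum response factor itself, read 14.18 and 13.77 in the Pak1-/- arrays and 12.96 and 12.97 in the Pak1+/+ arrays, a difference of 1.01 (SE 0.15, adjusted p = 0.0059 in limma). Its other probe gave 0.34 (adjusted p = 0.043). The coactivator Mrtfb was higher by 0.98 (SE 0.09, adjusted p = 0.0017), and Klf4, a zinc finger factor that opposes smooth muscle genes, by 1.97 (SE 0.07, adjusted p = 0.00013). The other probes of Mrtfb gave 0.66 (adjusted p = 0.0019) and 0.35 (adjusted p = 0.068, not called). Mrtfa, another coactivator, was higher by 0.68, and by 0.39 with its other probe. Of Elk3, a partner of Srf that was not called (0.19), 1 of the other 2 probes was called lower (-0.39, adjusted p = 0.016), so that 0 lower holds for the brightest probes only. No array had Myocd, which encodes the muscle-restricted coactivator myocardin, well above background. With cyclic loess the count of this list was 9 higher and 0 lower.

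Of 23 other genes of the smooth muscle contractile programme tested, 13 were called higher and 5 lower, with a median of 0.61 log2. Itga1, among the 13, was well above background on neither Pak1+/+ array and was tested only through the group where it was high. With all 4 arrays required to be well above background, 13 of 22 were higher and 5 lower. The sign of the 5 lower genes changed under none of the 15 alternatives, but with 1 array left out fewer passed: they were 1 without Pak1+/+ replicate 2, 2 without Pak1+/+ replicate 1 and 3 without Pak1-/- replicate 2, while the higher calls were 11 to 14 in these fits. The highest were Nexn (2.72), an actin-binding protein of the Z-disc and focal adhesions, Csrp1 (2.55), a LIM protein, and Pdlim3 (2.31), a partner of alpha-actinin. Their adjusted p was 0.00054 or less in limma. The myosin light chain Myl9 and its kinase Mylk were also higher, by 1.36 and 1.13. Among the genes called lower were Itga8 (-0.55), an integrin chain called under 15 of 15 alternatives, and Pgm5 (-0.50). The call of Pgm5 held under 13 of 15 alternatives, being lost without either Pak1+/+ replicate, and its other 2 probes were positive and not called. No array had Des, Kcnmb1, Fhl1 or Pln, genes of mature muscle, well above background.

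The paralogues of the members were examined next, with Tpm1 also on the contractile list. Of 18 tested, 12 were called higher and 1 lower (median 0.63 log2, the saturated probes of Actb and Actg1 included). Avpr2, among the 12, was well above background on neither Pak1+/+ array, so that it was tested only through the group where it was high. With all 4 arrays required to be well above background, 11 of 17 were higher and 1 lower. The other 3 tropomyosin genes rose, Tpm1 by 1.08 (SE 0.10), Tpm3 by 0.85 (SE 0.07) and Tpm4 by 0.81 (SE 0.07), with an adjusted p of at most 0.0017 in limma. The difference of Tpm2 was 3.04, and its excess over those of its paralogues was not tested. Non-muscle calponins and transgelin rose where Cnn1 and Tagln were not called: Cnn3 by 1.11 (SE 0.07), Cnn2 by 0.66 (SE 0.16) and Tagln2 by 0.71 (SE 0.07). The non-muscle myosin heavy chains Myh9, Myh10 and Myh14 rose by 0.93, 0.92 and 0.57. Among the actins, Acta1, the skeletal muscle isoform, rose by 1.76 (SE 0.09, adjusted p = 0.00036), while Actc1 was below that level on all 4 arrays. For Actb and Actg1, the cytoplasmic actins, the brightest probe was saturated on all 4 arrays and has no fold, and both genes stand among those tested and not called. Their other probes were not saturated and were called higher, 1 for Actb (0.42, adjusted p = 0.029) and 4 for Actg1 (0.43 to 0.70, adjusted p = 0.0052 to 0.0069). Actin genes are alike in sequence, and whether these probes also bind transcripts of other actins was not tested.

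Among the remaining paralogues, Tmod4, a tropomodulin, was higher by 0.43 and Lmod3 lower by 0.35 on the log2 scale (log2 difference -0.35). The calls of Cnn2, Lmod3 and Tmod4 held under 13 of 15 alternatives each. Cnn2 and Lmod3 lost theirs without either Pak1+/+ replicate (Cnn2 0.43 to 0.88, Lmod3 -0.39 to -0.27 over the alternatives), and Tmod4 without Pak1-/- replicate 1 and without Pak1+/+ replicate 1. Avpr2, a vasopressin receptor related to Oxtr, was at least 1.20-fold higher and dim in both Pak1+/+ arrays, whereas no array had Avpr1a or Avpr1b well above background. The p53 family genes Trp53 (-0.03) and Trp73 (0.12), the nearest relatives of Trp63, and the tropomodulin Tmod3 (0.13) did not pass the test (adjusted p = 0.79, 0.25 and 0.18), and the sign of Trp53 changed with cyclic loess, without Pak1-/- replicate 1 and without Pak1+/+ replicate 1.

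**Figure D4:**
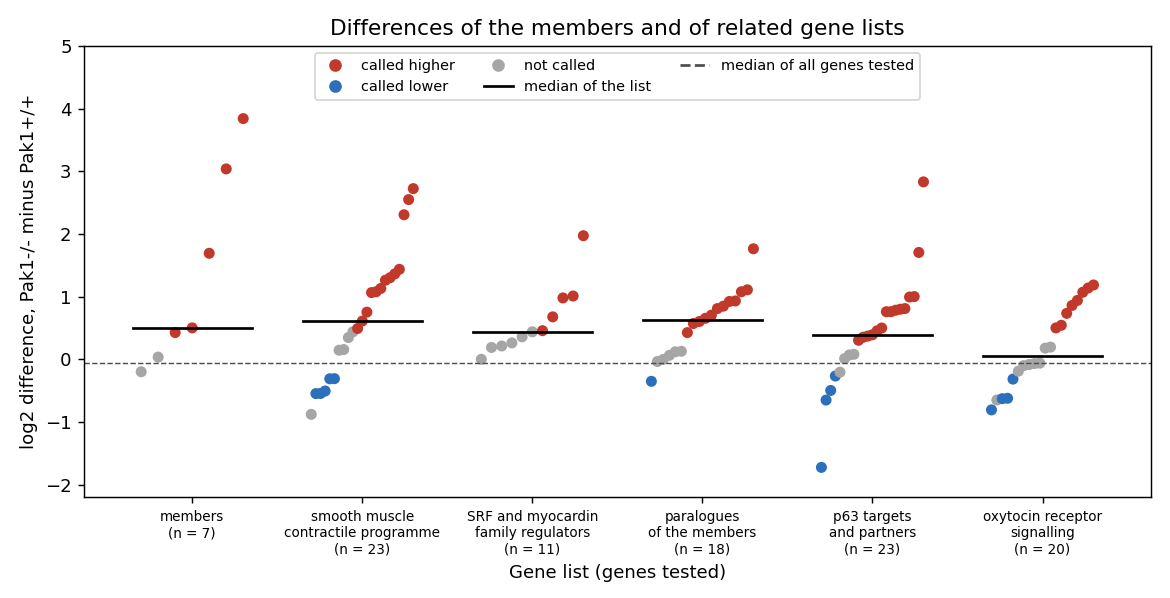
Log2 difference of Pak1-/- minus Pak1+/+ (vertical axis) of each gene tested, for the members and for the 5 related lists (horizontal axis), with called genes in red (higher) or blue (lower), genes not called in grey, a black line at the median of a list and a dashed line at the median of all genes tested (-0.05). Oxtr (3.84) and Tpm2 (3.04) are the highest points, and the median nearest the dashed line is that of the oxytocin receptor signalling list (0.06).

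Genes that p63 is known to regulate or work with were set beside Trp63. Of 23 tested, 15 were called higher and 4 lower (median 0.39 log2). Igfbp3, among the 15, was well above background on neither Pak1+/+ array, so that it was tested only through the group where it was high. With all 4 arrays required to be well above background, 14 of 22 were higher and 4 lower. Krt14, a keratin of basal cells, rose by 2.83 (SE 0.07, adjusted p = 7.5e-05 in limma), Lamb3, a chain of laminin-332, by 1.71 (SE 0.15) and Bnc1, the zinc finger protein basonuclin, by 1.00 (SE 0.12). Fgfr3 was -1.72 (SE 0.07; -0.46 with its other probe), Tfap2c -0.65 (SE 0.08) and Fat2 -0.50 (SE 0.09), all lower in the arrays labelled Pak1-/-. The count on this list was 12 without Pak1+/+ replicate 1 (9 higher and 3 lower). Krt5, the partner of Krt14 in keratin filaments, was higher by 0.50 (adjusted p = 0.028), and lost its call without Pak1-/- replicate 1, without Pak1+/+ replicate 1 and with the processed intensities. Col17a1, a hemidesmosome collagen, was not well above background on any array.

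Of 20 tested genes of oxytocin and its receptor's signalling, among them the ligand, 8 were called higher and 4 lower. Of all genes tested, 22.8% were called higher and 28.2% lower. The median of this list was 0.06 log2, close to that of all genes. The lower calls were 2 without Pak1-/- replicate 1 and 2 without Pak1+/+ replicate 1. The highest were Itpr2 (1.19, SE 0.10), a calcium release channel, Plcb4 (1.14, SE 0.07), a phospholipase C, and Prkca (1.07, SE 0.12), a protein kinase C. Among the genes called lower were Orai1 (-0.63, SE 0.17), a calcium entry channel, and Arrb2 (-0.62, SE 0.08), a beta-arrestin. The call of Orai1 held under 12 of 15 alternatives and was lost without Pak1-/- replicate 1, without Pak1+/+ replicate 1 and with no filter on dim probes. Of the coupled G proteins, Gnai2 was called higher by 0.86 (SE 0.07, adjusted p = 0.0012 in limma), with 0.64 to 0.90 over the alternatives. Gnaq (-0.06) and Gna11 (-0.10) did not pass (adjusted p = 0.52 and 0.31), the sign of Gnaq changing with cyclic loess. Oxt, the gene of oxytocin itself, was at -0.07 (adjusted p = 0.47).

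The name of the set was checked against markers of the cell types the cultures could hold. Of 10 myoepithelial and basal markers, 7 were tested and all 7 were called higher in the arrays labelled Pak1-/-, among them Krt17 (4.92) and the surface peptidase gene Mme (2.82). That list holds 4 of the members (Trp63, Acta2, Myh11 and Oxtr), and Krt5, Krt14 and Cdh3 of the p63 list. The summed linear intensity of its genes was 92807 to 103284 in the Pak1-/- arrays and 19698 to 20189 in the Pak1+/+ arrays, of which Krt14 made up 60.2% to 65.4% and 42.1% to 44.5%. Of the markers not tested, Lgals7, named after its values were seen, went the other way, at 6.38 and 6.42 in the Pak1-/- arrays and 6.95 and 7.00 in the Pak1+/+ arrays, with 1 Pak1+/+ array well above background. Of the luminal keratins, Krt8 was at 18.09 to 18.69 and Krt18 at 18.57 to 18.88 log2 on all 4 arrays, with differences of 0.57 and 0.27. Krt19, named after its values were seen, read 6.94 and 7.05 in the Pak1-/- arrays and 8.13 and 7.14 in the Pak1+/+ arrays, was not well above background on 1 Pak1+/+ array and was not called (-0.64, adjusted p = 0.17 in limma). Of the 11 tested luminal genes 5 were called higher and 1 lower, with a summed intensity of 1037620 to 1044160 against 824038 to 828108. Myh11 was not well above background in any sample, and Krt8 and Krt18 were well above it in every sample. The part of a basal or myoepithelial share of cells in the members' differences was not tested.

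Other cells that use the same contractile genes were looked for as well. No array had Des, Rgs5 or Pdgfrb, defining genes of vascular smooth muscle and pericytes, well above background, and of the 7 tested genes of that list 5 were called lower and 0 higher (summed intensity 45785 to 47057 against 55184 to 56059, mostly Mcam at 83.4% to 84.7% and 82.6% to 83.3%). Of the 6 tested fibroblast and myofibroblast markers 3 were called higher and 0 lower, namely Fn1 (6.61), Postn (at least 10.4-fold higher) and Col1a1 (1.12). Postn was well above background on neither Pak1+/+ array, so that it was tested only through the group where it was high. The summed intensity of that list was 79875 to 144865 in the Pak1-/- arrays and 2497 to 2870 in the Pak1+/+ arrays. Fn1 alone made up 97.0% to 97.5% of the former and 33.7% to 47.4% of the latter, the other genes coming to 2393 to 3615 against 1313 to 1902, and no array had Col3a1, Dcn or Lum well above background. The part of these transcripts in the rise of Acta2 and Tpm2 was not tested. Of the skeletal and cardiac muscle list 1 gene was higher (Acta1) and 1 lower of 5 tested, with Myog, Myh1, Myh2 and Actc1 not well above background on any array and a summed intensity of 15863 to 17450 against 48294 to 52636, while Ckm was not called. That fall was that of Tnnt2 (-1.69), the lower gene, without which the sum was 1240 to 1314 against 904 to 1009. Of the endothelial genes 0 of 4 tested were called (Pecam1 -0.09; summed intensity 10133 to 10505 against 9207 to 10983, mostly Kdr at 88.6% to 90.1% and 88.1% to 89.9%). Of the leukocyte genes 0 were higher and 1 lower of 5 tested, the lower one being Ptprc (-0.45; summed intensity 52068 to 74737 against 43245 to 47739, mostly Itgam, not called, at 89.4% to 92.2% and 87.1% to 90.2%).

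The genes nearest in pattern to Oxtr, Acta2 and Trp63 were found by the root mean square difference of log2 values, each centred on its own mean, over the 4 arrays and 21992 other genes. This is a description over 4 samples in 2 groups, and Ccn4, Colgalt2 and 4930539J05Rik were well above background on neither Pak1+/+ array, so that their distances rest on values at background. Nearest to Oxtr were Crip1 (0.035), Vdr (0.12) and Ccn4 (0.13). Nearest to Acta2 were Ccn2 (0.044), Colgalt2 (0.067) and Lamb3 (0.067). Nearest to Trp63 were the transcripts named 4930539J05Rik (0.0055) and Agpat4 (0.0096) and an Ensembl transcript without a gene name (0.014).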

How the data were processed

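Cy3-labelled RNA of 2 Pak1-/- and 2 Pak1+/+ samples was hybridized to 1-colour arrays with 60-base probes. The deposited scanner output of each array gives a linear intensity per spot (Feature Extraction 9.5.3.1 in the headers), with local background and flags (0 or 1), not normalized between arrays. The authors also deposited log2 values, normexp corrected and quantile normalized per their methods, used here as an alternative.

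Background was corrected with normexp (offset 50, all spots) in limma 3.58.1 (R 4.3.3). Non-control spots were quantile normalized on the log2 scale, flagged spots were set aside and spots of a probe averaged. With this offset, changes of dim spots come out too small. A probe was well above background where most of its spots were, and probes so on at least 2 of 4 arrays were kept (27215 of 39429, 69.0%). The arrays' median spot intensity was 322 to 331, and 62.2% to 70.4% of probes were well above background. Their number limits the precision. Groups were compared with lmFit and eBayes (two-sided, Benjamini-Hochberg over all probes kept, threshold 0.05), with 2 residual degrees of freedom and a prior of 2.63. An exact permutation test of 2 against 2 cannot go below 0.333, and none was run. Where neither array of a group had a probe well above background, a bound is given. It sets the brighter group's mean against the dim group's, after raising each dim value to the array's faintest well-above-background probe where it lay under that.

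Genes that are not members were named through RefSeq accessions (26055 probes matched, GRCm38.p6), otherwise by the files. Probe coordinates are on mm9 (NCBI37). The members, gene lists and tests were chosen with earlier results of these data known. Named were all members, the tested paralogues, the 3 highest and 3 lowest calls of each other list and fixed markers. Mrtfa, Myl9, Mylk, Krt17, Mme, Fn1, Postn, Gnaq, Gna11, Gnai2, Foxo4, Itga1, Igfbp3 and the dim genes named were added after their values were seen. Some genes that this rule names are not reported here. The fit was tested on simulated data.

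Alternatives were normexp offsets of 0 and 16, processed intensities or normexp values scaled to the 75th percentile, cyclic loess, the deposited table, other filters, flagged spots kept, a trended robust fit, stricter thresholds, gene values averaged over probes, a replicate block and leaving out each array.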

Additional observations from a re-analysis of the deposited data

How the results depend on the processing

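Of the values of single members under the alternatives, 5 lost their call, and 3 of the untested Myh11 moved by more than the SD between replicates. The sign turned for Lmod1, not tested, at -0.11 without Pak1-/- replicate 2, and for Cnn1, at -0.0064 in the deposited table and -0.12 without Pak1+/+ replicate 2, the lowest of its leave-one-out values (highest 0.19). Stricter thresholds lowered counts by construction: adjusted p under 0.01 gave 8900 probes instead of 14144, and 11 genes of the p63 list instead of 19, and an added 2-fold requirement gave 3413 probes, 3 members, 10 smooth muscle genes (18 in the main setting), 2 CArG regulators (5), 3 paralogues (13), 4 p63 genes and 3 oxytocin genes (12). Cyclic loess gave 9 CArG regulators, and the cause was not tested. In leave-one-out fits, with 1 residual degree of freedom and a lone sample taken to vary like the other group, the p63 list had 12 to 17 calls, the members called higher were 4 to 5 and the probes called 10312 to 12169. Nothing in the labels pairs equal replicate numbers (r of replicate differences -0.028 across probes, genes not being independent replicates), and with the replicate block 13202 probes and 5 members passed, and no member call changed. Signal over background limits Myh11, Lmod1, Cnn1 and the dimmer Trp63 probe.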
